A study of Mus musculus with 9 samples.

Results

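Toll-like receptors (TLRs) and the proteins they need to be placed and to signal were examined as a group of 10 genes, chosen by name: Tlr1, Tlr2, Tlr3, Tlr4, Tlr6, Tlr7, Tlr9, the receptor-like gene Cd180, the adaptor Myd88 and the chaperone Unc93b1. They are 10 of 22174 genes in the table that defined the group, and all 10 were among the 11165 genes with enough reads to be tested. RNA was sequenced from B cells of the spleens of 9 mice, each contributing 1 library. Eµ-MTCP1 mice (Z2551, Z2606 and Z2641) carry human MTCP1, and Eµ-TCL1 mice (B4376, B4437 and C1594) carry human TCL1, each behind an immunoglobulin heavy chain variable promoter and Eµ enhancer that direct it to B cells. The wildtype mice (Z2754, Z2755 and Z2785) carry neither transgene, and all 9 are of strain C57/BL6NTac, with no age given in the labels. The study states that the sequenced Eµ-MTCP1 mice came from 1 founder line. Per its methods, B cells were enriched from whole spleen with a negative selection kit. Leukemic and residual normal B cells of a transgenic mouse were thus sequenced together. The comparisons ask whether receptors of innate sensing differ between either leukemia and normal B cells, and between the leukemias.

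TLRs are membrane proteins that recognize conserved microbial molecules and signal through a shared cytoplasmic domain. TLR2, paired with TLR1 or TLR6, binds bacterial lipopeptides at the cell surface, while TLR4 with its partner MD-2 binds lipopolysaccharide. TLR3, TLR7 and TLR9 bind nucleic acids inside endosomes and need the chaperone UNC93B1 to leave the endoplasmic reticulum. MYD88 joins every TLR except TLR3 to the IRAK kinases and NF-κB. B cells use these receptors to proliferate, to secrete antibody and cytokines, and to respond to ligands without T cell help, and MYD88 and TLR signaling are studied in chronic lymphocytic leukemia because some human cases carry MYD88 mutations.

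Libraries held 6447542 to 8033303 reads on genes of the coding-sequence reference, and levels are given as counts-per-million (CPM). CPM values here are scaled by the TMM factors of edgeR, which correct for differences in RNA composition and were 0.911 to 0.946 in Eµ-MTCP1, 0.959 to 1.01 in Eµ-TCL1 and 1.02 to 1.18 in wildtype libraries. On this scale 3 reads, the count that a reading of 0 allows, correspond to 0.326 to 0.495 CPM. The transgenes followed the labels in every library. The deposited log2-like value of human MTCP1 was 11.1 to 12.3 in Eµ-MTCP1 mice and at most 6.19 in the others, and that of human TCL1A was 14.9 to 15.6 in Eµ-TCL1 mice and at most 6.96 elsewhere. The B cell marker Cd79a, a chain of the B cell receptor complex, measured 2429 to 4084 CPM over the 9 libraries and Ms4a1 367 to 782 CPM, and neither was called. Cd22, an inhibitory receptor of B cells, was called lower in Eµ-TCL1 mice. Markers of macrophages, monocytes and neutrophils (15 genes) summed to 895 to 1356 CPM in Eµ-MTCP1, 380 to 1798 in Eµ-TCL1 and 889 to 1893 in wildtype mice, and of the 14 tested only Cd68 was called, higher in both leukemias. Summed markers of dendritic cells were 5.62 to 49.3 CPM in Eµ-MTCP1, 13.4 to 41.0 in Eµ-TCL1 and 16.7 to 36.9 in wildtype mice. Flt3 was called lower in Eµ-TCL1 mice, at 3.87, 3.32 and 0.56 CPM against 12.9, 28.8 and 23.7 in wildtype. Its log2 fold change was -3.06 (edgeR adjusted p = 0.0161). Ccr9, of the same list, went the other way without a call, at 3.87, 6.4 and 38.5 CPM against 0.74, 0.65 and 1.21. In Z2606, Ccr9 made up 35.8 of the 49.3 CPM. The part of dendritic cells in the Tlr1 and Tlr3 values was not tested. Summed markers of T and NK cells reached 51.9 CPM and those of red cells and platelets 214 CPM. Wildtype Z2755 was sequenced on lane 1 and the other 8 libraries on lane 5. In bulk RNA, fewer cells of a type and less RNA per cell cannot be told apart.

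Tlr1 and Tlr6 carry most of what follows, and they are neighbors that share part of their coding sequence, so their sequences are shown first. Tlr1 (chr5:64924679-64933563) and Tlr6 (chr5:64952031-64960097) lie on the minus strand of the GRCm38 build in GENCODE M21. Their coding sequences, each within 1 exon, are 2388 and 2421 bases long. A search of these sequences for shared words of 31 bases found that 603 of 2358 words of Tlr1, or 25.6%, also occur in Tlr6, and 0 of them in Tlr2. The longest stretch without a difference is 229 bases. It is printed below with 30 bases on each side, from coding base 1438 of Tlr1 (chr5:64925507-64925795) and from coding base 1477 of Tlr6 (chr5:64953798-64954086), 5′ to 3′ on the minus strand, with the 2 bases that differ in capitals.
Tlr1: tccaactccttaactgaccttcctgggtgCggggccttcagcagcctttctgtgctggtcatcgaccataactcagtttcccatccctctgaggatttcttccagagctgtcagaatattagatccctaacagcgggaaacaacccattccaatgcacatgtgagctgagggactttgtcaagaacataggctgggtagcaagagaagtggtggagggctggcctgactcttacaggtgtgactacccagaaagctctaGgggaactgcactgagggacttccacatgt
Tlr6: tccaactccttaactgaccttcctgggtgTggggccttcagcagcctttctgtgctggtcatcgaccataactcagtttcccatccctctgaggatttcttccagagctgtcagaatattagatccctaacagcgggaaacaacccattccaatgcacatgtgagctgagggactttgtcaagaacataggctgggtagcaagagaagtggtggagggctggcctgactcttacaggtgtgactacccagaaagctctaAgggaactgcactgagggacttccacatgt
A read that lies inside this stretch does not tell the genes apart, and its assignment by Salmon rests on the reads in the other parts of each gene. The level of either gene is to that extent uncertain, and their summed reads are given beside the separate values.

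Promoter windows, from 250 bases before to 50 bases after an annotated start, were taken from RefSeq (GRCm38.p6), which listed windows for 7 of the 10 genes with 2 windows each for Tlr1, Tlr6 and Cd180. The window of the more upstream start is printed for Tlr1 and Tlr6, and matches in the other are described after it. Capitals mark matches on either strand to GAGGAAGT, the PU.1 type of motif, or to TATAAA, the TATA box type, out of 7 motifs searched.
Tlr1, chr5:64933509-64933808, minus strand: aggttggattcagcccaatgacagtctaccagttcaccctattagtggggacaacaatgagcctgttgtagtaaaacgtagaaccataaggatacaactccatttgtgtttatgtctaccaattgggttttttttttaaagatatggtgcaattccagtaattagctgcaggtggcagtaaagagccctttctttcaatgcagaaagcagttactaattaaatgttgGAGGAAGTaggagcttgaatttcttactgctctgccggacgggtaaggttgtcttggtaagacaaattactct
Tlr6, chr5:64959999-64960298, minus strand: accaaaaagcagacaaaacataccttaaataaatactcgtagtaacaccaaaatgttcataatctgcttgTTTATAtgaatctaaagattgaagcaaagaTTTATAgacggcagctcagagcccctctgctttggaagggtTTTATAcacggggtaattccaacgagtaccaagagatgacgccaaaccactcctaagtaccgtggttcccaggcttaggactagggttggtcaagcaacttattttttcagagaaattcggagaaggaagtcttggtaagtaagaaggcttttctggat
The Tlr1 window held GAGGAAGT from base -23 relative to the start, a motif present in 3.2% of 32851 promoter windows of the same length. The Tlr6 window held TATAAA at 3 places, all in the reverse orientation and none overlapping another motif, and this motif was present in 13.6% of windows. The other Tlr1 window (chr5:64932650-64932949) held the E-box motif CACGTG from base -195, a motif of 7.15% of all windows, and no other match. The other Tlr6 window (chr5:64959117-64959416) held an interferon-response type of motif at 2 overlapping places, from bases -116 and -110, a motif of 3.44% of all windows. The AP-1 type of motif, TGANTCA, had no match in the 4 windows and occurred in 7.81%, and the cAMP-response type, TGACGTCA, had none and occurred in 1.79%. The NF-κB type had none either and occurred in 0.411% of windows. No factor binding was measured here, so these matches describe sequence only.

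Of the 10 genes, 0 were called in Eµ-MTCP1 against wildtype, where 9.46% of all 11165 tested genes were called, and 1 was called in Eµ-TCL1 against wildtype, where 9.18% were. Between Eµ-TCL1 and Eµ-MTCP1, 0 of the 10 were called, against 0.0537% of all genes (0.0269% higher and 0.0269% lower). At an unadjusted edgeR p under 0.05 the counts were 2, 1 and 0 of the 10, against 24.8%, 24.9% and 6.22% of all genes, and DESeq2 called 2, 1 and 0 of the 10, against 12.9%, 13.2% and 0.579% of all genes. Groups of 3 mice did not overlap for 3 of the 10 genes in each comparison with wildtype, Tlr6 higher and Tlr1 and Tlr3 lower. That number is near the background, since for Eµ-MTCP1 29.9% of all genes did not overlap (14.7% higher and 15.3% lower) and for Eµ-TCL1 32.6% (16.6% and 16.1%). Between the leukemias Tlr4 was higher and Tlr6 lower in Eµ-TCL1 without overlap, against 11% of all genes (5.42% and 5.62%). The median log2 fold change of the 10 genes was 0.01 in Eµ-MTCP1, -0.15 in Eµ-TCL1 and -0.06 between the leukemias, and over all tested genes it was -0.02, -0.01 and -0.00. Among called genes, 58% were higher in Eµ-MTCP1 and 55.9% in Eµ-TCL1 than in wildtype mice, and with library sizes alone these shares were 35% and 43.3%.

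**Figure D1:**
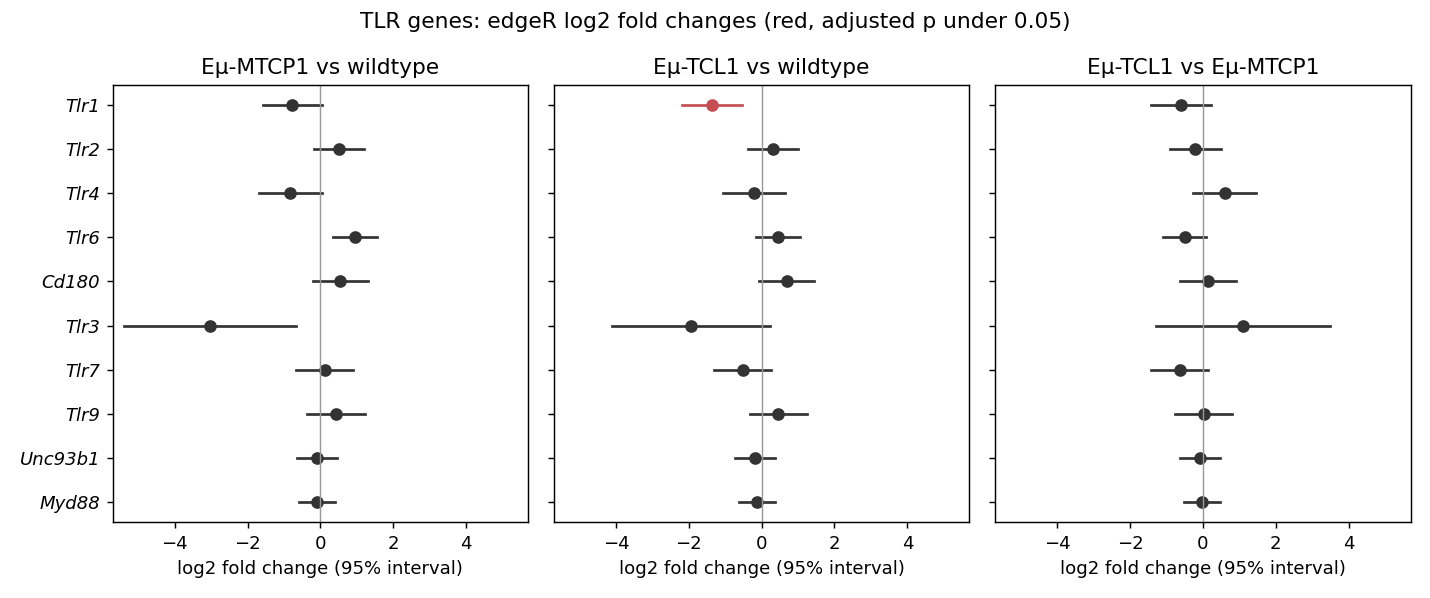
Log2 fold changes of the 10 genes (x axis, points, with 95% intervals as bars) in the 3 comparisons, from the edgeR fit over all tested genes. Only Tlr1 in Eµ-TCL1 against wildtype, at -1.37, passed an adjusted p of 0.05, and the Tlr3 intervals are the widest.

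Tlr1, the TLR2 partner for triacylated lipopeptides, was lower in Eµ-TCL1 than in wildtype mice. It measured 165, 130 and 129 CPM in wildtype mice Z2754, Z2755 and Z2785. In Eµ-MTCP1 mice Z2551, Z2606 and Z2641 it measured 104, 40.1 and 106 CPM, and in Eµ-TCL1 mice B4376, B4437 and C1594 it measured 65.3, 65.4 and 33.5 CPM. Neither leukemic group overlapped the wildtype mice, and Z2606 and C1594 were the lowest libraries. In the edgeR quasi-likelihood test over all genes, the Eµ-TCL1 difference was a log2 fold change of -1.37 ± 0.37 (SE, 95% interval -2.19 to -0.54, adjusted p = 0.0464), the only change among the 10 genes that passed an adjusted p of 0.05. The Eµ-MTCP1 difference was -0.77 ± 0.37 (interval -1.58 to 0.05, edgeR adjusted p = 0.224), and the leukemias differed by -0.60 ± 0.37 (edgeR adjusted p = 0.851), so a difference between them was not shown. The Eµ-MTCP1 value was -0.48 without Z2606 and -1.02 without Z2641. The Eµ-TCL1 call was lost when any 1 of the 3 Eµ-TCL1 or 3 wildtype libraries, or Eµ-MTCP1 Z2551, was left out, with log2 fold changes from -1.54 to -1.11 and edgeR adjusted p-values up to 0.151 over all leave-one-out fits.

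Tlr6, the TLR2 partner for diacylated lipopeptides, had its highest values where Tlr1 did not. It measured 7.31, 9.01 and 9.97 CPM in wildtype, 18.7, 14.8 and 17.01 in Eµ-MTCP1 and 10.7, 12.0 and 13.0 in Eµ-TCL1 libraries, each in the order given above. In these CPM the 3 groups did not overlap, with Eµ-MTCP1 above Eµ-TCL1 and Eµ-TCL1 above wildtype. This order did not hold in the deposited gene counts, where Z2606 had 115 Tlr6 reads and the Eµ-TCL1 mice 120, 136 and 127. In those counts the library of Z2606 held 10962135 reads, against 10214880, 11428759 and 10680746 in Eµ-TCL1 mice. The log2 fold change in Eµ-MTCP1 was 0.94 ± 0.27 (SE, interval 0.34 to 1.54) with an edgeR adjusted p of 0.0535, just outside the threshold. In Eµ-TCL1 it was 0.44 ± 0.27 (edgeR adjusted p = 0.348), and Eµ-TCL1 against Eµ-MTCP1 gave -0.50 ± 0.27 (edgeR adjusted p = 0.827). The Eµ-MTCP1 difference passed with DESeq2 (adjusted p = 0.0199), on the full-transcript reference (edgeR adjusted p = 0.0406) and with transcript length offsets (edgeR adjusted p = 0.0437), which are 3 of 18 alternatives. Of all genes, 12.9%, 9.64% and 8.45% were called under these 3. It was 0.72 in the deposited gene counts (edgeR adjusted p = 0.131) and 0.71 with library sizes alone (edgeR adjusted p = 0.127), and the highest adjusted p of the 18 was 0.163.

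The ratio of Tlr1 to Tlr6 reads was read off after these values were seen and is given without a test. There were 22.5, 14.4 and 13.0 Tlr1 reads per Tlr6 read in wildtype mice, against 5.54, 2.71 and 6.20 in Eµ-MTCP1 and 6.13, 5.44 and 2.57 in Eµ-TCL1 mice. All 6 leukemic libraries lay below all 3 wildtype libraries. In the gene count table deposited by the authors the ratio was 10.1 to 14.7 in wildtype mice and 2.19 to 4.67 in the 6 transgenic mice. With Tlr1 and Tlr6 reads summed into 1 feature, an alternative added after the data were seen and one that no division of shared reads between them can change, the sum was 172, 139 and 139 CPM in wildtype, 122, 54.8 and 123 in Eµ-MTCP1 and 75.9, 77.5 and 46.5 in Eµ-TCL1 mice. Tlr1 supplied most of these reads, so the sum is not a second result, and it does not bear on Tlr6 or on the ratio. The sum was lower in Eµ-TCL1 mice (log2 fold change -1.17 ± 0.31, edgeR adjusted p = 0.0384), and in Eµ-MTCP1 mice the value was -0.59 ± 0.31 (edgeR adjusted p = 0.261).

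**Figure D2:**
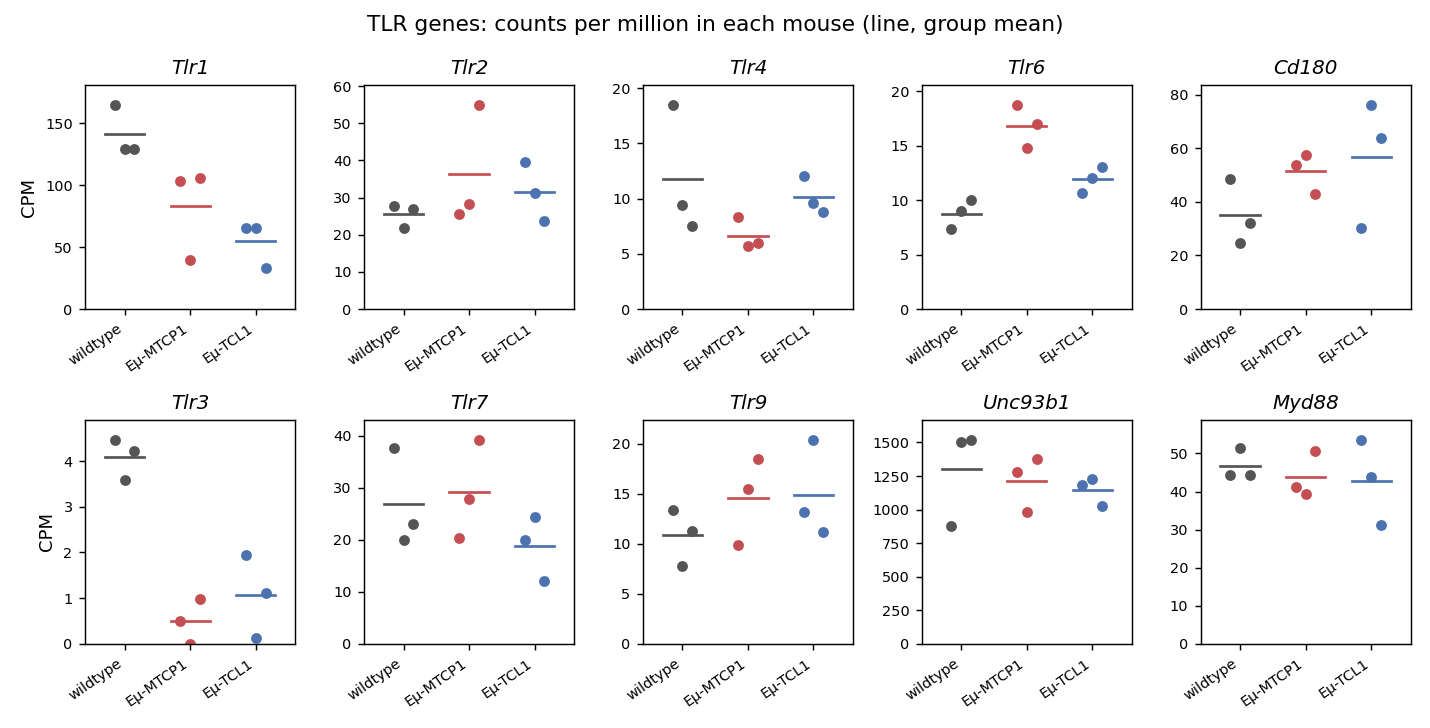
CPM (y axis, from 0) of the 10 genes in each of the 3 wildtype, 3 Eµ-MTCP1 and 3 Eµ-TCL1 mice (x axis), with 1 point per mouse and a line at the group mean. Tlr1 and Tlr3 lie lower and Tlr6 higher in all 6 leukemic libraries than in all 3 wildtype libraries, while Unc93b1, Myd88, Tlr2, Tlr7, Tlr9 and Cd180 overlap.

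**Figure D3:**
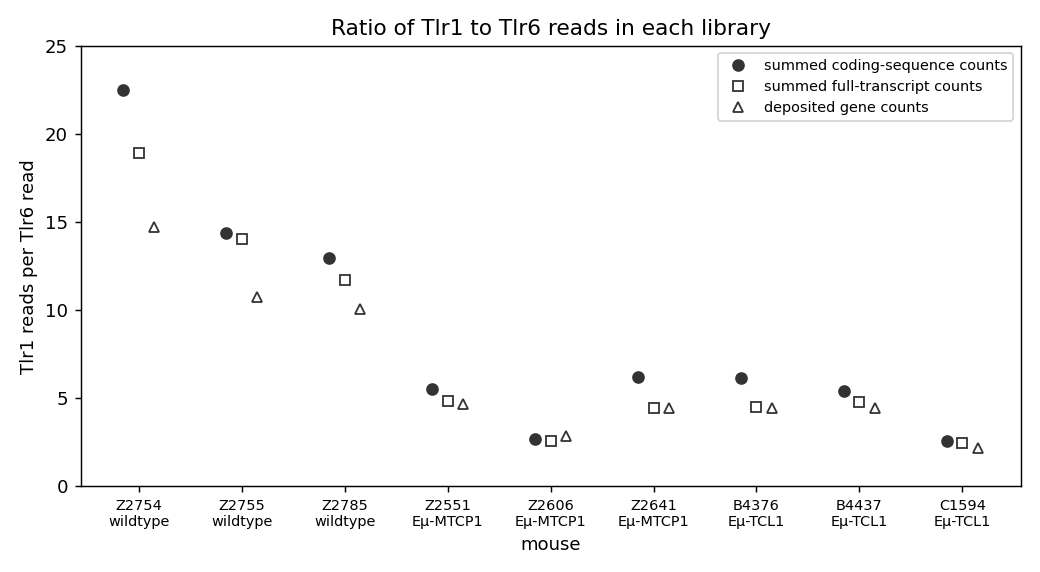
Tlr1 reads per Tlr6 read (y axis) in each of the 9 libraries (x axis) from 3 tables: coding-sequence counts, full-transcript counts and the deposited gene counts. In each table the 3 wildtype libraries lie above the 6 leukemic ones, with the coding-sequence ratio at 13.0 or more in wildtype and at 6.20 or less in leukemic mice.

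Tlr2, the shared partner of TLR1 and TLR6, was not distinguishable between groups. It measured 27.6, 21.8 and 27.0 CPM in wildtype, 25.6, 28.3 and 54.8 in Eµ-MTCP1 and 39.6, 31.2 and 23.7 in Eµ-TCL1 mice. Eµ-MTCP1 Z2641 alone was above 50 CPM. The log2 fold changes were 0.51 ± 0.31 in Eµ-MTCP1 (interval -0.19 to 1.20, edgeR adjusted p = 0.344) and 0.30 ± 0.31 in Eµ-TCL1 (edgeR adjusted p = 0.597). Without Z2641 the Eµ-MTCP1 value was 0.050, and without B4376 the Eµ-TCL1 value was 0.11. Tlr4, the lipopolysaccharide receptor, was a low-abundance transcript, with 36 to 149 reads a library. It measured 18.5, 9.44 and 7.55 CPM in wildtype, 8.37, 5.68 and 5.95 in Eµ-MTCP1 and 12.0, 9.58 and 8.82 in Eµ-TCL1 mice. Eµ-MTCP1 mice lay below Eµ-TCL1 mice without overlap, but the log2 fold change of 0.61 ± 0.39 between the leukemias did not pass (edgeR adjusted p = 0.852). Against wildtype, Tlr4 gave -0.83 ± 0.39 in Eµ-MTCP1 (edgeR adjusted p = 0.220) and -0.22 ± 0.39 in Eµ-TCL1 (edgeR adjusted p = 0.770), and without Z2754 these values were -0.36 and 0.25.

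Macrophages and monocytes express Tlr2 and Tlr4 as well, and their markers varied among libraries. Within Eµ-TCL1 mice, B4376, B4437 and C1594 had summed marker levels of 1798, 875 and 380 CPM, the same order as for Tlr2 and Tlr4. Within Eµ-MTCP1 mice the sums of 895, 1068 and 1356 CPM for Z2551, Z2606 and Z2641 had the order of Tlr2 but not of Tlr4. In wildtype mice, Z2754 had the lowest marker sum, 889 CPM, and the highest Tlr2 and Tlr4 levels. The defining marker Lyz2 had 674 to 7439 reads in every library, and the part of these cells in the Tlr2 and Tlr4 values was not tested.

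Cd180 (RP105), a TLR-like surface receptor of B cells that pairs with MD-1, overlapped between all groups. Wildtype mice had 48.7, 24.5 and 32.2 CPM, Eµ-MTCP1 mice 53.8, 57.4 and 42.9 and Eµ-TCL1 mice 30.2, 76.0 and 63.9. The log2 fold changes were 0.55 ± 0.34 in Eµ-MTCP1 (interval -0.21 to 1.31, edgeR adjusted p = 0.351) and 0.69 ± 0.34 in Eµ-TCL1 (interval -0.07 to 1.45, edgeR adjusted p = 0.247). Leaving out each library moved these Cd180 values from 0.31 (Z2755) to 0.85 (Z2754) and from 0.39 (B4437) to 0.99 (B4376). Over all 18 alternatives the lowest values were -0.081 in Eµ-MTCP1, with transcript length offsets, and 0.074 in Eµ-TCL1. The MD-1 gene Ly86 was called higher in Eµ-TCL1 mice, with a log2 fold change of 1.26 ± 0.35 (edgeR adjusted p = 0.0498). Ly86 had 333, 747 and 460 CPM in Eµ-TCL1 against 263, 165 and 217 in wildtype mice, and its Eµ-MTCP1 value was 0.63 ± 0.35 (edgeR adjusted p = 0.285).

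Among the endosomal receptors, Tlr3, which binds viral RNA duplexes, was close to the limit of these libraries. Raw reads show it best: 36, 33 and 28 in wildtype mice, 3, 0 and 6 in Eµ-MTCP1 and 14, 1 and 8 in Eµ-TCL1 mice. Every leukemic library had fewer reads than every wildtype library, and the reading of 0 in Z2606 allows up to 0.426 CPM. In the gene counts deposited by the authors, wildtype mice had 64, 57 and 43 reads, Eµ-MTCP1 mice 6, 0 and 7 and Eµ-TCL1 mice 19, 2 and 10. The log2 fold change was -3.04 ± 1.07 in Eµ-MTCP1 (interval -5.39 to -0.68, edgeR adjusted p = 0.109) and -1.94 ± 0.98 in Eµ-TCL1 (interval -4.11 to 0.23, edgeR adjusted p = 0.254). The Eµ-MTCP1 value was -4.06 without Z2641 and -2.47 without Z2606, and the Eµ-TCL1 value was -2.71 without B4376, -1.43 without B4437 and -0.17 with transcript length offsets. Tlr3 passed the expression filter through the wildtype libraries, where it is high. Over 18 alternatives the adjusted p of the Eµ-MTCP1 difference ran from 0.0343 (DESeq2) to 0.247, and 1 of the 18 was under 0.05.

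Tlr7, the receptor for single-stranded RNA, and Tlr9, the receptor for unmethylated CpG DNA, overlapped between all groups. Tlr7 measured 37.5, 19.9 and 23.1 CPM in wildtype, 20.3, 27.8 and 39.1 in Eµ-MTCP1 and 19.9, 24.3 and 12.0 in Eµ-TCL1 mice. Its log2 fold change was 0.12 ± 0.35 in Eµ-MTCP1 (interval -0.66 to 0.89, edgeR adjusted p = 0.864) and -0.52 ± 0.35 in Eµ-TCL1 (interval -1.30 to 0.27, edgeR adjusted p = 0.405). With library sizes alone, without TMM factors, the Eµ-MTCP1 value was -0.12, so no direction can be given. The Eµ-TCL1 value of Tlr7 ran from -0.77 without B4437 to -0.20 without Z2754. Tlr9 measured 13.4, 7.82 and 11.3 CPM in wildtype, 9.84, 15.5 and 18.5 in Eµ-MTCP1 and 13.1, 20.4 and 11.2 in Eµ-TCL1 mice. Its log2 fold changes of 0.43 ± 0.36 and 0.46 ± 0.36 had edgeR adjusted p-values of 0.487 and 0.462, and the interval for Eµ-TCL1 ran from -0.32 to 1.25. The Tlr9 value was 0.20 without Z2641 in Eµ-MTCP1 and 0.14 without B4437 in Eµ-TCL1.

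Unc93b1, which escorts the endosomal TLRs, had the most reads of the 10 genes. It measured 878, 1501 and 1518 CPM in wildtype, 1283, 984 and 1374 in Eµ-MTCP1 and 1181, 1227 and 1030 in Eµ-TCL1 mice. The lowest library, Z2754, was a wildtype one, and the groups overlapped. Log2 fold changes were -0.10 ± 0.25 (interval -0.64 to 0.45) and -0.18 ± 0.25 (interval -0.73 to 0.37), with edgeR adjusted p-values of 0.835 and 0.699. Myd88, the common adaptor, had 44.4, 51.3 and 44.4 CPM in wildtype, 41.2, 39.5 and 50.5 in Eµ-MTCP1 and 53.5, 43.7 and 31.1 in Eµ-TCL1 mice. Its log2 fold changes were -0.10 ± 0.22 (interval -0.59 to 0.40) and -0.13 ± 0.22 (interval -0.62 to 0.37), with edgeR adjusted p-values of 0.822 and 0.772.

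Levels of different genes were compared per length, as transcripts-per-million (TPM) on the coding-sequence reference. In wildtype mice Unc93b1 stood at 424 ± 138 TPM (SD, n = 3), Cd180 at 75.5 ± 10.8, Myd88 at 52.2 ± 8.95 and Tlr1 at 26.5 ± 3.52, with no overlap between neighbors in this order. The wildtype Cd180 level rests on short effective lengths and on the full-transcript reference it was 33.4 ± 2.85 TPM, after Myd88 at 41.5 ± 10.7 and Tlr1 at 40.2 ± 5.37, with overlapping ranges. On the coding-sequence reference Tlr2 followed at 5.86 ± 0.27 TPM, Tlr7 at 3.94 ± 0.56 and Tlr4 at 2.22 ± 0.61. On the full-transcript reference Tlr7 was 20.9 ± 3.70 TPM, above Tlr2 at 6.30 ± 0.13 without overlap. That value includes the short Tlr7-206, of 261 bases, which took 11, 16 and 11 of the 457, 254 and 213 wildtype Tlr7 reads. As CPM per kilobase of the longest coding transcript, Tlr2 at 10.8 ± 1.36 was above Tlr7 at 8.51 ± 2.98, with overlapping ranges. In coding-sequence TPM, Tlr9 at 1.79 ± 0.45 and Tlr6 at 1.67 ± 0.37 overlapped with each other and Tlr9 with Tlr4, and Tlr3 was last at 0.76 ± 0.05. In Eµ-MTCP1 mice Tlr6 at 3.05 ± 0.87 TPM stood above Tlr9 at 1.87 ± 0.58 and Tlr4 at 1.13 ± 0.34, although its range overlapped that of Tlr9. In Eµ-TCL1 mice Tlr1 at 8.62 ± 2.87 TPM overlapped Tlr2 at 6.07 ± 1.49, an overlap that was not present on the full-transcript reference. Unc93b1 was first in all 3 groups, also on the full-transcript reference and as CPM per kilobase of the longest coding transcript, a measure added after the data were seen. The places of most other genes changed with the reference or scale. On the full-transcript reference wildtype Tlr6, at 1.66 ± 0.30 TPM, came last, below Tlr3 at 1.99 ± 0.41 with overlapping ranges. Per kilobase, wildtype Tlr1 was 59.2 ± 8.48 CPM, above Myd88 at 52.4 ± 4.51 with overlapping ranges and above Cd180 at 17.7 ± 6.22.

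On the coding-sequence reference, short annotated transcripts moved the length-corrected values of Tlr3, Tlr6 and Tlr7 in 1 library each and of Cd180 in most libraries. Myd88-202, with 327 coding bases, took 2.97% to 9.33% of the Myd88 reads. The mean effective length of Myd88 was 378 to 452 bases over the 9 libraries, against 891 coding bases of Myd88-201. In Eµ-MTCP1 Z2551, 1 of the 124 Tlr7 reads was assigned to Tlr7-204, which has 142 coding bases in the reference, and the other 123 to Tlr7-202, which has 3153. The mean effective length of Tlr7 in that library was 424 bases, against 2742 to 3626 in the other 8. The value deposited by the authors for Tlr7, on a log2-like scale, was 9.90 in Z2551 and 7.38 to 8.38 in the other 8 libraries, although Z2551 had fewer Tlr7 CPM than 5 of them. With length offsets in the edgeR fit, the Eµ-MTCP1 log2 fold change of Tlr7 became 1.42, compared with 0.12 on reads alone.

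The same held for Tlr3 in Eµ-TCL1 C1594, for Cd180 and, less far, for Tlr6 in Eµ-MTCP1 Z2641. In Z2641, 3.01 Tlr6 reads were assigned to Tlr6-202 with 340 coding bases, its mean effective length was 1599 bases against 2386 to 2563 elsewhere, and its deposited value of 8.15 was the highest of the 9. With length offsets the Eµ-MTCP1 log2 fold change of Tlr6 was 1.20. In C1594, 2.91 of 8 Tlr3 reads, or 36.4%, were assigned to Tlr3-209 with 279 coding bases. The mean effective length of Tlr3 was 218 bases there and 1811 to 2768 elsewhere, and its deposited value was 7.34, the highest of the 9 libraries. Its TPM of 2.004 in C1594 also exceeded the 0.71 to 0.82 of the wildtype mice, whereas its reads did not. For Cd180, Cd180-201 took 89.8% to 99.0% of the reads in each library, yet the mean effective length ran from 130 bases in B4376 to 1384 in Z2551 and was 340, 165 and 163 bases in the wildtype libraries, against 1986 coding bases of that transcript. Cd180 had a deposited value of 9.88 in Z2606 with 404 reads and of 8.25 in B4437 with 619 reads. Tlr1, with 1 coding transcript in the reference, showed no such departure.

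**Figure D4:**
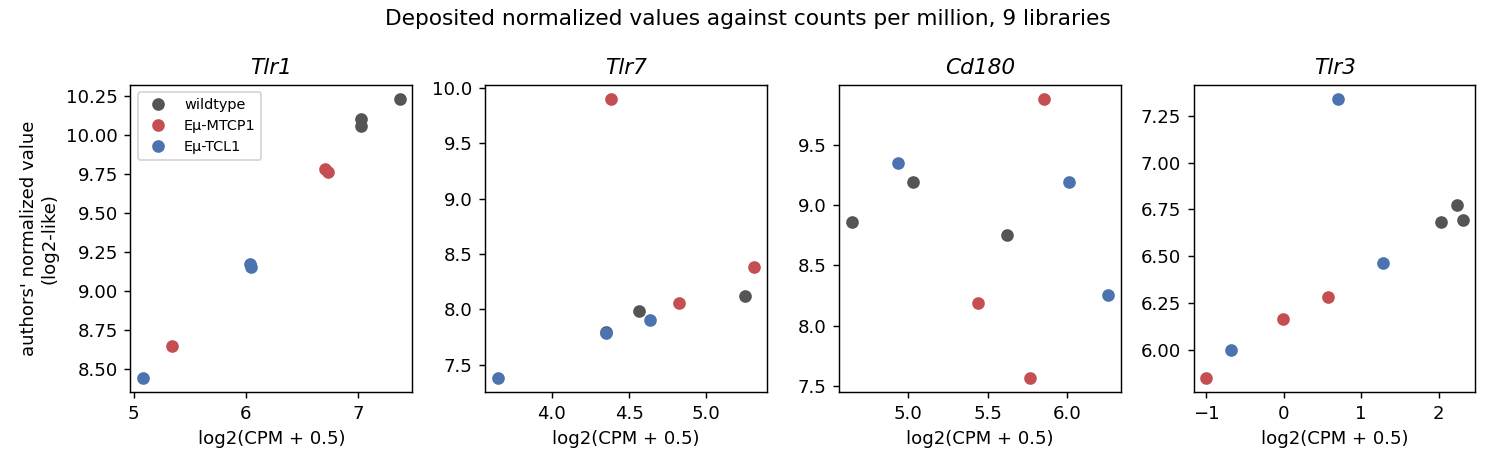
Normalized log2-like value deposited by the authors (y axis) against log2(CPM + 0.5) from summed reads (x axis) for Tlr1, Tlr7, Cd180 and Tlr3, with 1 point per library. Tlr1 lies along a line, Tlr7 in Z2551 at 9.90 and Tlr3 in C1594 at 7.34 stand far above the other libraries, and Cd180 is scattered.

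The rest of the pathway was counted over lists of 78 genes, of which 74 were tested. Against wildtype, 5 were called higher and 9 lower in Eµ-MTCP1. In Eµ-TCL1 the numbers were 6 and 4. Set beside all genes, of which 5.48% were called higher and 3.98% lower in Eµ-MTCP1, and 5.13% and 4.05% in Eµ-TCL1, the calls can be read against these shares, and no set test was run. None of the 74 was called between the leukemias by edgeR, where 0.0537% of all genes were. These counts describe lists chosen with earlier results of these data known.

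Other receptors of the family were scarce. Tlr5 had at most 7 reads and Tlr11 at most 5 in any library, and neither was tested. Of Tlr8, Tlr12 and Tlr13, 0 were called, with Tlr13 at 8 to 69 reads. Among 6 co-receptors and ligand-binding genes, 0 were called in Eµ-MTCP1 and 2 in Eµ-TCL1, namely Ly86 and Ly96, the MD-2 gene that TLR4 needs to bind lipopolysaccharide. Ly96 measured 10.2, 12.6 and 13.7 CPM in Eµ-TCL1 and 6.44, 2.71 and 4.38 in wildtype mice, a log2 fold change of 1.43 ± 0.38 (edgeR adjusted p = 0.0390). In Eµ-MTCP1 mice it was 10.7, 7.39 and 9.25 CPM, a value of 1.01 ± 0.38 (edgeR adjusted p = 0.132).

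Of 12 tested genes for folding, transport and processing, 2 were lower in Eµ-MTCP1 and 1 in Eµ-TCL1 mice. Nrros, a leucine-rich repeat protein of the endoplasmic reticulum that binds TLRs, measured 234, 198 and 267 CPM in Eµ-MTCP1 against 374, 459 and 474 in wildtype mice. Its log2 fold change was -0.90 ± 0.21 (edgeR adjusted p = 0.0240), and in Eµ-TCL1 it was -0.72 ± 0.21 (edgeR adjusted p = 0.0594). The gene 5430427O19Rik, which encodes TASL, an adaptor that links endosomal TLRs to IRF5, was lower by a log2 fold change of -1.38 ± 0.28 in Eµ-MTCP1 (edgeR adjusted p = 0.0125), with -0.86 ± 0.28 in Eµ-TCL1 (edgeR adjusted p = 0.0830). Ctsl, an endosomal protease able to cleave nucleic acid-sensing TLRs, was lower in Eµ-TCL1, with 4.01, 4.79 and 4.76 CPM against 25.4, 18.8 and 13.6 in wildtype mice (-2.09 ± 0.40, edgeR adjusted p = 0.00852), and its Eµ-MTCP1 value was -1.27 ± 0.39 (edgeR adjusted p = 0.0668).

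Among 17 adaptors, kinases and ligases, 1 was higher in Eµ-MTCP1. In Eµ-TCL1, 1 was higher and another lower. Ticam1, which encodes TRIF, the adaptor that TLR3 uses, was 67.5, 47.9 and 63.7 CPM in Eµ-TCL1 against 31.6, 28.5 and 30.4 in wildtype mice (log2 fold change 0.98 ± 0.27, edgeR adjusted p = 0.0462), with 0.76 ± 0.27 in Eµ-MTCP1 (edgeR adjusted p = 0.111). Ticam2, which encodes TRAM and links TLR4 to TRIF, was 11.49, 4.83 and 5.62 CPM in Eµ-MTCP1 against 2.23, 2.28 and 0.906 in wildtype mice (1.99 ± 0.53, edgeR adjusted p = 0.0382), with 1.497 ± 0.52 in Eµ-TCL1 (edgeR adjusted p = 0.103). Wildtype mice had 18, 21 and 6 Ticam2 reads, and the leukemic libraries, where it is higher, carried it through the expression filter. Btk, a kinase shared by B cell receptor and TLR signaling, had a log2 fold change of -0.57 ± 0.16 in Eµ-TCL1 (edgeR adjusted p = 0.0496) and of -0.49 ± 0.16 in Eµ-MTCP1 mice (edgeR adjusted p = 0.0804). Irak1, Irak4 and Traf6, which act directly after MYD88, were not called in either comparison.

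Of 7 transcription factors, 1 was called, Rel, an NF-κB subunit, which was lower in Eµ-MTCP1 mice at -1.19 ± 0.30 (edgeR adjusted p = 0.0334) and had -0.74 ± 0.30 in Eµ-TCL1 (edgeR adjusted p = 0.159). Of 12 inhibitors of TLR signaling, 4 were lower in Eµ-MTCP1 and 1 in Eµ-TCL1, and 0 were higher. Irak3, which encodes IRAK-M, a kinase-like brake on MYD88 signaling, was lower in both. It measured 40.9, 40.5 and 32.8 CPM in wildtype, 20.02, 6.82 and 10.1 in Eµ-MTCP1 and 15.6, 12.2 and 7.84 in Eµ-TCL1 mice, and no leukemic library reached the wildtype range. Its log2 fold changes were -1.63 ± 0.39 (edgeR adjusted p = 0.0259) and -1.68 ± 0.39 (edgeR adjusted p = 0.0224). Tnfaip3, which encodes the ubiquitin-editing enzyme A20, fell in Eµ-MTCP1 mice (log2 fold change -1.86 ± 0.37, edgeR adjusted p = 0.0114), as did Nfkbia, which encodes the NF-κB inhibitor IκBα (-0.87 ± 0.23, edgeR adjusted p = 0.0366), and Tank (-1.04 ± 0.23, edgeR adjusted p = 0.0165). In Eµ-TCL1 mice the same 3 had log2 fold changes of -0.71, -0.61 and -0.39, with edgeR adjusted p-values of 0.256, 0.123 and 0.321.

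Of 17 tested genes that TLR ligands can induce in B cells, 4 were higher and 2 lower in Eµ-MTCP1. The numbers for Eµ-TCL1 were 3 and 1. The largest were Cd80, a costimulatory ligand, and Il10, a regulatory cytokine. Cd80 measured 2.35, 2.39 and 2.87 CPM in wildtype, 23.1, 21.02 and 21.5 in Eµ-MTCP1 and 27.4, 15.8 and 31.5 in Eµ-TCL1 mice, with log2 fold changes of 3.10 ± 0.32 (edgeR adjusted p = 0.000309) and 3.29 ± 0.33 (edgeR adjusted p = 0.000216). Il10 had log2 fold changes of 2.95 ± 0.47 and 3.42 ± 0.47 (edgeR adjusted p = 0.00309 and 0.00140). Prdm1, which encodes the plasma cell factor BLIMP-1, rose in both (2.11 ± 0.50 and 1.83 ± 0.50, edgeR adjusted p = 0.0282 and 0.0498), and Ebi3, a subunit of IL-27 and IL-35, rose in Eµ-MTCP1 (1.53 ± 0.39, edgeR adjusted p = 0.0362) and had a value of 1.38 ± 0.39 in Eµ-TCL1 (edgeR adjusted p = 0.0527). Cd40, a costimulatory receptor, was lower in both (-1.74 ± 0.30 and -1.16 ± 0.29, edgeR adjusted p = 0.00463 and 0.0308), and Nfkb2 was lower in Eµ-MTCP1 (-1.77 ± 0.39, edgeR adjusted p = 0.0194), with -0.16 ± 0.38 in Eµ-TCL1 (edgeR adjusted p = 0.837). Il6 had at most 2 reads in any library, and Tnf, Cd69 and Cd86 were not called, so the list did not move in 1 direction. These genes answer to many stimuli, and ligand exposure was not measured.

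**Figure D5:**
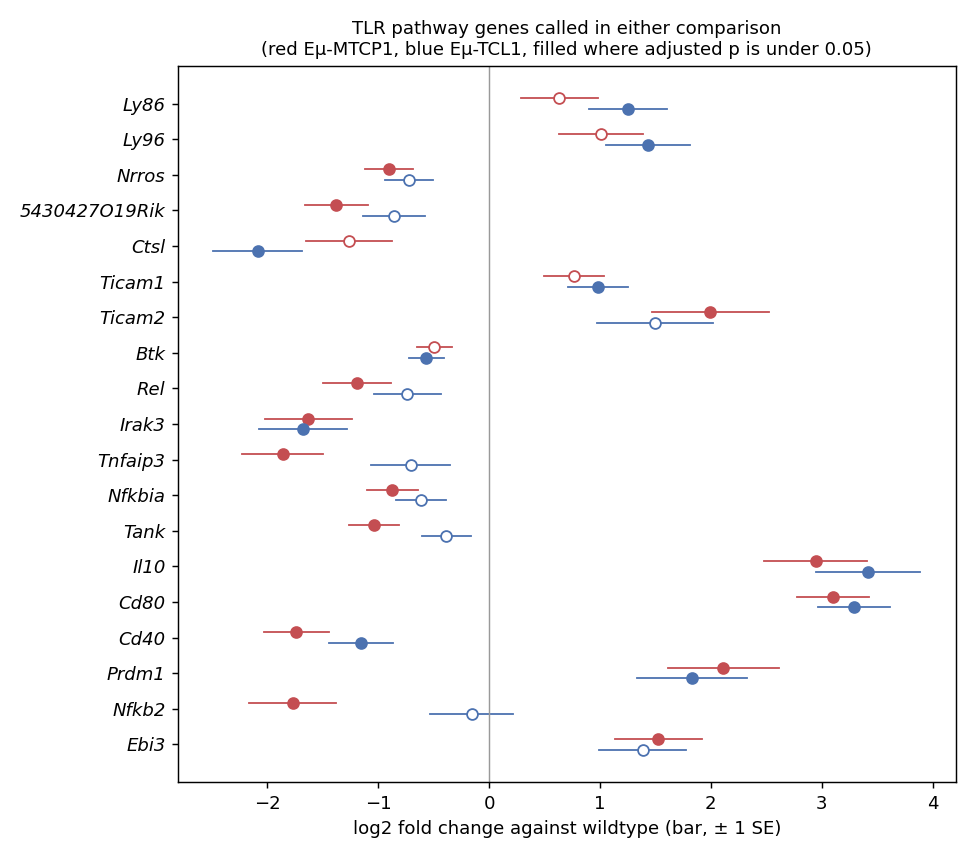
Log2 fold changes against wildtype (x axis, points, with bars of 1 SE) of the 19 listed pathway genes called in at least 1 leukemia, red for Eµ-MTCP1 and blue for Eµ-TCL1, filled where the adjusted p was under 0.05. Cd80 and Il10 lie near 3 in both, and Irak3 and Cd40 are lower in both.

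The genes whose pattern over the 9 libraries was most like that of Tlr1 were Kcnq5 and Fam133b, found by the root mean square difference in log2 CPM after each gene was centered on its wildtype mean. The differences were 0.31 and 0.32 on the log2 scale. Kcnq5, a potassium channel subunit, measured 10.9, 10.3 and 8.61 CPM in wildtype and 1.68 to 10.2 in leukemic mice, with C1594 lowest, as for Tlr1.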

How the data were processed

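Splenic B cells of 9 mice were profiled by RNA-sequencing. The labels name SMARTer and Nextera XT kits and also a stranded TruSeq kit. The authors ran Salmon 1.0.0 for estimated counts and TPM of each transcript, on a standard reference of 140748 transcripts and on one of 57871 transcripts with human sequences, of which 87.3% have a length divisible by 3 (coding sequence). Whole counts per gene were deposited by the authors, and the processing notes name HISAT2 2.0.6, featureCounts and build GRCm38.p4. A further count table had passed the authors' CLEAR filter, which kept values for Tlr3 in 5 of 9 libraries and for the other 9 genes in all. The deposited normalized values, on a log2-like scale, came from tximport and DESeq2. Deposited fold changes and p-values hold the authors' comparisons and were not used.

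Estimated counts were summed per gene by GENCODE M21 identifiers and rounded. Of the 57871 transcripts, 442 had no gene there (0.19% to 0.29% of reads) and were left out. Genes were filtered with filterByExpr, scaled by TMM and compared in edgeR 4.0.16 (quasi-likelihood) over all 9 libraries, with 1 coefficient per group, two-sided, Benjamini-Hochberg adjusted over 11165 genes within a comparison, and called at an adjusted p under 0.05. DESeq2 1.42.0, other scalings, tables and filters, and leaving out each library were alternatives, and the script was tested on simulated data. Each library is 1 mouse, so p-values measure the spread between mice. The 10 genes and the pathway lists were chosen with earlier results of these data known. All 10 genes are named, and of each list the genes called against wildtype, up to 6 by size, are named. Uncalled genes named beside them were picked after their values were seen. The 95% intervals of fold changes come from the fit, and the floor of 3 reads covers counting error only.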

Additional observations from a re-analysis of the deposited data

How the results depend on the processing

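Over 18 alternatives for each of the 10 genes and 3 comparisons (17 for Tlr3 between the leukemias, where the fit of these 2 groups alone gave no value), 509 fold changes kept their direction and side of the threshold, 19 reversed, 7 lost and 4 gained a call, and the causes were not tested. With DESeq2, 1624, 1662 and 73 genes were called in Eµ-MTCP1 and Eµ-TCL1 against wildtype and between the leukemias, and without an expression filter 15 between the leukemias. Leaving out each library gave 516 to 1042, 520 to 1239 and 5 to 9 calls. Of the 10 genes, 2 were called in Eµ-MTCP1 with DESeq2 (12.9% of all genes), 1 on the full-transcript reference (9.64%) and 1 with length offsets (8.45%), and in Eµ-TCL1 0 to 1 when a library was left out. The share of calls that were higher, with library size alone, was 35% and 43.3% against wildtype. Between the leukemias it was 0% in the deposited gene counts and 16.7% on the full-transcript reference. Leaving out libraries gave 52.9% to 59.6%, 50% to 59.9% and 40% to 66.7%.

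The reversed values were all of genes without a call. In Eµ-MTCP1 against wildtype, Myd88 was 0.043 on the deposited gene counts and 0.019 on the full-transcript reference, Tlr7 was -0.12 with library size alone and Cd180 was -0.081 with length offsets. Leaving out each library gave Tlr7 from -0.19 to 0.43 (-0.09 without Z2755) and Unc93b1 from -0.32 to 0.028. In Eµ-TCL1 against wildtype it gave Tlr4 from -0.46 to 0.25 and Myd88 from -0.32 to 0.058. Between the leukemias, library size alone gave Myd88 0.070 and Unc93b1 0.014. Leaving out each library there gave Tlr2 from -0.40 to 0.22, Tlr9 from -0.27 to 0.23, Cd180 from -0.13 to 0.44, Myd88 from -0.22 to 0.15 and Unc93b1 from -0.21 to 0.010. No paired analysis was possible because the labels carry mouse names and no replicate numbers. With 3 mice a group and a floor of 0.326 to 0.495 CPM, low genes such as Tlr3 have wide intervals.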
